A study of Mus musculus with 2 samples.

Results

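The genes described here are 34 markers of kidney compartments, measured in mouse ureters: markers of nephron progenitors, podocytes, the proximal tubule, the loop and distal tubule, the collecting duct and the renal stroma, with a few that mark several tubule segments. They were chosen by name, with earlier results of these data known, and all 34 had a probe on the array. Of these, 28 passed the filter on dim probes and were tested among 21978 genes. The other 6 (Nphs1, Hnf4a, Slc12a1, Slc12a3, Umod and Scnn1g) were too dim to test. The list is meant to hold no transcription factors, but 4 of its genes encode one (Meox1, Hnf4a, Tfcp2l1 and Alx1), and all were kept.

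RNA came from ureters of NMRI mouse embryos at embryonic stage E14.5. The RNA labelled Bmp4cKO came from embryos of genotype Tbx18(cre/+);Bmp4(fl/fl), in which a cre recombinase at the Tbx18 locus acts on both floxed Bmp4 alleles, so that the deletion is directed to cells with Tbx18 activity. The RNA labelled control came from embryos of genotype Tbx18(+/+);Bmp4(fl/?), which carry a floxed Bmp4 allele (the other allele is not specified) but no cre and keep both intact copies of Tbx18. There were 2 two-colour arrays, each carrying 1 RNA of either label, with the dyes exchanged between them. Replicate 1 was labelled female and had the control RNA in red (AlexaFluor647), and replicate 2 was labelled male and had the Bmp4cKO RNA in red. The sources used here do not say whether embryos were pooled, so the p-values concern these 2 arrays and no known number of embryos. Each rests on the gene's spread between the arrays together with a prior from all genes (1 residual and 4.03 prior degrees of freedom).

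The direction of every ratio rests on the dye labels. The Bmp4 probe tested, the only 1 of 2 that passed the filter on dim probes, went against them. Its processed signal on replicate 1 was 29491 under the Bmp4cKO label and 3613 under the control label, and on replicate 2 these were 27393 and 1973. Bmp4 was thus higher in the RNA labelled as deleted, by 3.38 ± 0.48 on the log2 scale (SD, n = 2, limma adjusted p = 0.016). The authors' deposited table carries the opposite sign, with Bmp4 at -8.16 and -13.9 as a signed fold. Tbx18, which encodes the factor whose locus carries cre, was higher on the same side as Bmp4, by 0.97 ± 0.17 (SD, n = 2, limma adjusted p = 0.040). Every "higher" in what follows means higher in the RNA labelled Bmp4cKO, which is the RNA with more Bmp4, and every "lower" the reverse. If the dye labels were exchanged, all directions would turn against the genotypes, but not against Bmp4.

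A second label was also at odds with the data. Replicate 2 carries the label male for both RNAs, yet its RNA labelled control gave a signal of 2720 for the Y-linked Ddx3y and 85.2 for Xist, whereas the RNA labelled Bmp4cKO gave 6.25 and 2120. On replicate 1 the Ddx3y signals were 4.0 and 5.75 and the Xist signals 2348 and 2794. The RNAs of replicate 2 therefore differed in sex-linked expression as well as in label, and 3 of the kidney markers (Cited1, Avpr2 and Tmem27) lie on the X chromosome. Between 68.4% and 73.9% of probes were well above background in a channel, and no probe was saturated.

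The ureter connects the kidney to the bladder and, at this stage, consists of an epithelial tube that becomes the urothelium and a mesenchymal coat in which Tbx18 is active and smooth muscle forms. Bmp4 is a secreted signal made by that mesenchyme. The ureteric bud gives rise to both the ureteric epithelium and the collecting ducts, while nephrons from podocyte to distal tubule arise from progenitors in the cap mesenchyme of the kidney, next to the renal stroma. Several of the genes listed here are therefore known in more than 1 of these tissues, and a marker of a kidney compartment is not exclusive to it. In bulk RNA, fewer cells of a type and less RNA per cell cannot be told apart.

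Of the 28 markers tested, limma called 3 higher (Crym, Aqp1 and Aqp3) and 5 lower (Ptpro, Lrp2, Tmem27, Alx1 and Aoc1) at an adjusted p under 0.05. Over all genes tested, 0.887% were called higher and 1.02% lower. By a fold rule, 3 markers were higher and 4 were lower at least 2-fold on each array, where the shares over all genes were 0.578% and 0.619%. Both counts of lower markers include Aoc1, which was near background in the RNAs labelled Bmp4cKO and has only a bound; with genes well above background in all 4 channels they were 4 and 3. The called markers of either direction came from different compartments: proximal tubule markers were called both ways, and the 3 genes called higher belonged to 3 lists. The median log2 ratio of the 28 was -0.18, against -0.01 over all genes, with medians of -0.14 on replicate 1 and -0.29 on replicate 2. Of the 28, 22 had the same sign on both arrays, against 58.8% of all genes. When ratios were only centred on the array median, without loess, limma called no gene of the 21978 at all (1760 had an unadjusted p under 0.05, among them 15 of the 28 markers), and Bmp4 itself had an adjusted p of 0.30.

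**Figure D1:**
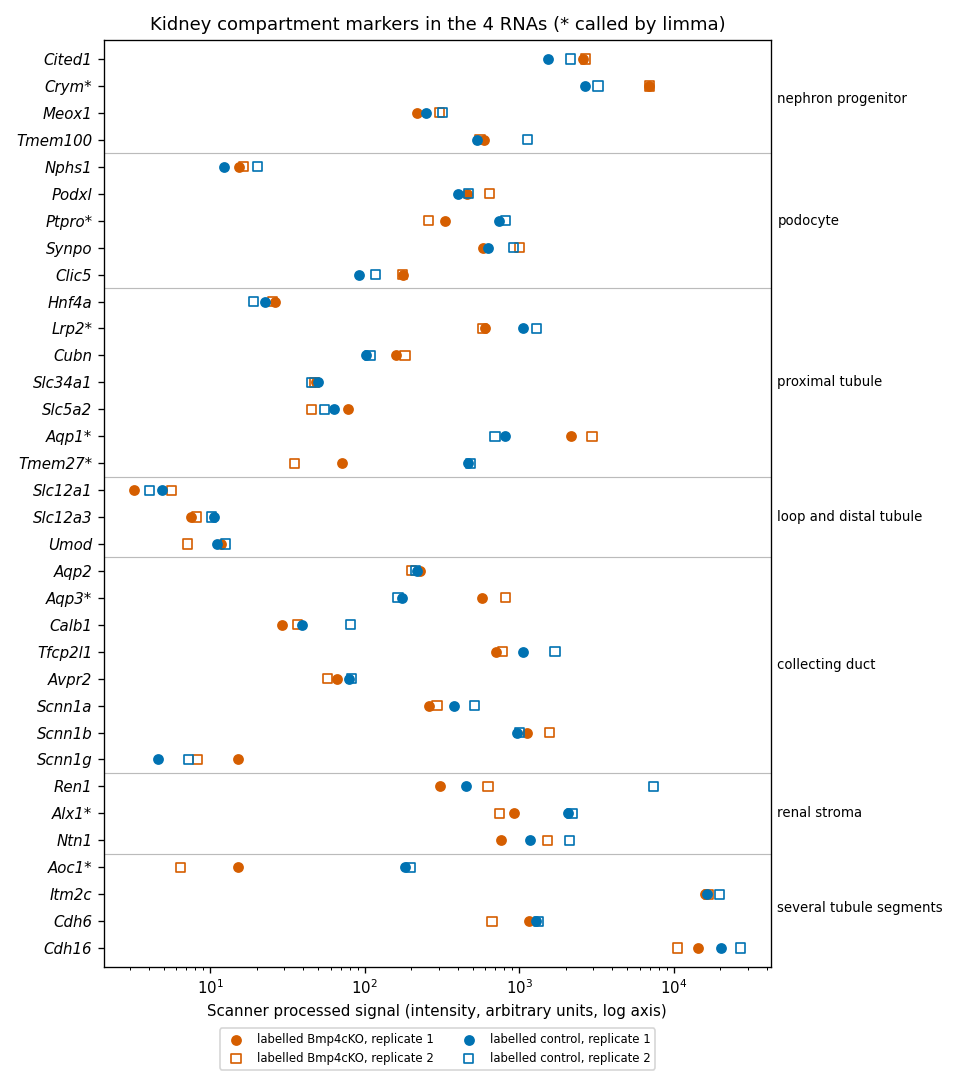
Processed signal of each of the 34 markers in each RNA on a log axis, grouped by compartment, with circles for replicate 1 and open squares for replicate 2, orange for the RNA labelled Bmp4cKO and blue for that labelled control. Both orange points lie to one side of both blue points for the 8 called genes. The same holds for uncalled genes such as Cited1, Clic5, Cubn and Cdh16, but not for others such as Meox1 and Synpo. This pattern was not counted over all genes. The loop and distal tubule markers stay at or below 12.6 in all 4 RNAs.

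Signals in the text are the scanner software's processed intensities, in arbitrary units, given for each RNA. Ratios are log2 values after background correction and loess within each array, so they differ from the quotient of the printed signals, strongly for some dim probes. The Tmem27 ratio, -2.44 here, was -2.72 with an offset of 10 and -3.24 with the scanner's processed signals. Signals were not scaled between the arrays, so whether the labels overlap is a description, and the test rests on the ratios within arrays. Uncalled markers such as Cited1, Clic5 and Cubn also had labels that did not overlap. How many of all genes have labels that do not overlap was not counted, so non-overlap lends no support to a ratio. Levels of different genes cannot be compared, since each probe binds with its own strength. Positions are those of the array annotation in mouse build mm9, on which exon and UTR boundaries were not used here.

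Among the 4 nephron progenitor markers, 1 was called higher, none was called lower, and the median log2 ratio was 0.20. Crym encodes mu-crystallin, a protein that binds thyroid hormone, and its probe lies at chr7:127329970-127330029. Its signals were 6895 and 6970 in the RNAs labelled Bmp4cKO and 2659 and 3229 in those labelled control, so the 2 labels did not overlap. The log2 ratio was 1.22 ± 0.22 (SD, n = 2), a 2.32-fold difference with a limma adjusted p of 0.031. Cited1, a transcriptional co-regulator that marks the earliest progenitors of the cap mesenchyme, gave 2566 and 2692 against 1529 and 2153. Its log2 ratio was 0.51 ± 0.19 (SD, n = 2) and was not called (limma adjusted p = 0.16). The 95% interval of limma for Cited1 ran from 0.18 to 0.84.

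The other two progenitor markers had opposite signs on the 2 arrays. Tmem100, a membrane protein of BMP signalling in endothelium, gave similar signals of 589 and 532 on replicate 1. On replicate 2 it was at 556 in the RNA labelled Bmp4cKO and 1126 in that labelled control, which made the latter the one high RNA of the 4. Meox1, a homeobox factor, ranged from 218 to 319 over the 4 RNAs, with a 95% interval of the log2 ratio from -0.45 to 0.21.

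The 5 podocyte markers held 1 gene called lower and none called higher, and nephrin stayed near background. Ptpro encodes a receptor tyrosine phosphatase of the podocyte surface (probe at chr6:137411402-137411461). It gave 329 and 257 in the RNAs labelled Bmp4cKO and 742 and 816 in those labelled control. The labels did not overlap, and the log2 ratio was -1.32 ± 0.33 (SD, n = 2, limma adjusted p = 0.035), or 2.49-fold lower. Nphs1, which encodes nephrin of the slit diaphragm and defines podocytes, stayed between 12.2 and 20.3 and was not well above background in any RNA.

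The remaining podocyte markers did not follow Ptpro. Podxl, a sialomucin of podocyte and endothelial surfaces, had a log2 ratio of 0.29 ± 0.22 (SD, n = 2, limma adjusted p = 0.44). Clic5, an intracellular chloride channel protein, was at 177 and 176 against 92.1 and 117, with a log2 ratio of 0.63 ± 0.24 (SD, n = 2) that was not called (limma adjusted p = 0.12). Synpo, an actin-associated protein of foot processes, had a 95% interval from -0.35 to 0.34 around a ratio near 0. The median of the 4 podocyte markers tested was 0.14, with -0.01 on replicate 1 and 0.30 on replicate 2.

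Proximal tubule markers split: of 6 tested, 1 was called higher and 2 were called lower, and the median was -0.02. Tmem27, now named Cltrn, encodes collectrin, a membrane protein that brings amino acid transporters to the tubule surface. Its signals were 71.6 and 35 in the RNAs labelled Bmp4cKO and 463 and 483 in those labelled control. The log2 ratio of -2.44 ± 0.30 (SD, n = 2, limma adjusted p = 0.016) was 5.43-fold, with only 2 of the 21978 genes lower. A dimmer Tmem27 probe was at 49.3 and 20.6 against 352 and 339. It was well above background in both RNAs labelled control but in only 1 of the 2 labelled Bmp4cKO, so it passed the filter through the side where it is high, and its ratio on replicate 2 is set by background. The brighter probe lies at chrX:160556732-160556791 and the dimmer one at chrX:160546391-160546450. The sequence of the dimmer probe, which holds no stop codon in any of its 3 forward frames, is shown because it carries this second measurement.
Tmem27 probe: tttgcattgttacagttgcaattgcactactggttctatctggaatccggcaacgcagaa

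Lrp2, or megalin, is the large endocytic receptor that takes up filtered protein (probe at chr2:69262566-69262625). It was at 596 and 575 in the RNAs labelled Bmp4cKO and 1056 and 1293 in those labelled control, with no overlap. The log2 ratio was -0.98 ± 0.11 (SD, n = 2, limma adjusted p = 0.037), and with the scanner's processed signals in place of loess the adjusted p was 0.053. Cubn, the partner of megalin in endocytosis, lay on the other side, at 158 and 182 against 102 and 108. Its log2 ratio was 0.52 ± 0.11 (SD, n = 2) and was not called (limma adjusted p = 0.13). Of this receptor pair, therefore, only Lrp2 passed the test.

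Aqp1, a water channel of the proximal tubule and of some endothelia, was the proximal tubule marker called higher (probe at chr6:55298480-55298539). It gave 2173 and 2952 in the RNAs labelled Bmp4cKO and 804 and 696 in those labelled control. The labels did not overlap, and the log2 ratio was 1.67 ± 0.59 (SD, n = 2), or 3.19-fold, with a limma adjusted p of 0.040. Of 4 endothelial genes, none was called, and their median log2 ratio was 0.22. Their summed signals were 18015 and 23244 in the RNAs labelled Bmp4cKO and 17261 and 18761 in those labelled control. Kdr, the VEGF receptor, had a log2 ratio of 0.34 ± 0.16 (SD, n = 2, limma adjusted p = 0.32) and Emcn, endomucin, one of 0.03 ± 0.22 (SD, n = 2, limma adjusted p = 0.97). The part of endothelial cells in the Aqp1 ratio was not tested.

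The transporters that serve the mature proximal tubule were dim. Slc34a1, the sodium phosphate cotransporter, stayed between 44.9 and 49.8 in all 4 RNAs, with a 95% interval from -0.34 to 0.26. A second Slc34a1 probe lay between 3.81 and 6.25 and was not well above background in any RNA, so detection rests on 1 probe. Slc5a2, the sodium glucose cotransporter, was between 45.3 and 77.6 and had opposite signs on the 2 arrays. Hnf4a, the transcription factor of the proximal tubule, lay between 19.1 and 26.1 and was well above background in 1 RNA alone, that labelled Bmp4cKO on replicate 1.

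Markers of the loop of Henle and the distal tubule stayed near background. Slc12a1, the sodium potassium chloride cotransporter of the thick ascending limb, lay between 3.22 and 5.57. Slc12a3, the thiazide-sensitive cotransporter, lay between 7.47 and 10.5, and Umod, uromodulin, between 7.13 and 12.6. None of the 3 was well above background in any RNA, and their summed signals were 22.4 and 20.8 in the RNAs labelled Bmp4cKO and 26.4 and 26.8 in those labelled control.

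Of the 8 collecting duct markers, 7 were tested, 1 was called higher and none was called lower. Aqp3, a water and glycerol channel of the basolateral membrane that the urothelium also expresses, gave 570 and 814 in the RNAs labelled Bmp4cKO and 175 and 164 in those labelled control (probe at chr4:41039962-41040021). The log2 ratio was 1.79 ± 0.42 (SD, n = 2, limma adjusted p = 0.025), or 3.46-fold. Of 7 markers of the urothelium, 5 were also called higher, and the median log2 ratio of the list was 2.25. Krt5 and Trp63, named after their values were seen, were not called, with log2 ratios of 0.06 and 0.04 (limma adjusted p = 0.94 and 0.95). The summed signals of all 7 were 33654 and 40986 in the RNAs labelled Bmp4cKO and 12296 and 11659 in those labelled control. Most of each sum is Krt19. Krt19, an epithelial keratin, was higher by 1.41 ± 0.05 (SD, n = 2, limma adjusted p = 0.021), and the uroplakin gene Upk3a by 2.48 ± 0.42 (SD, n = 2, limma adjusted p = 0.019). The part of urothelial cells in the Aqp3 ratio was not tested.

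Aqp2, the vasopressin-regulated channel that defines collecting duct principal cells, did not pass the test and varied little. It was at 226 and 201 in the RNAs labelled Bmp4cKO and 219 and 214 in those labelled control, and the 95% interval of its log2 ratio ran from -0.32 to 0.28. Of the 3 aquaporins on the list, 2 were called higher, and Aqp2 was not called. Over all genes tested, 0.887% were called higher. Aqp4, of the further collecting duct list and named after its value was seen, had a log2 ratio of -0.41. It was not called (limma adjusted p = 0.3). The Aqp2 result concerns this gene alone. The Aqp2 probe spans 977 bases of genome with its 60 bases (chr15:99412578-99413554), so it crosses a splice junction. It is shown because this probe reads spliced transcript.
Aqp2 probe: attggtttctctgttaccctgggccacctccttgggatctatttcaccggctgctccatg
Promoter sequence was set beside the ratios for 23 of the 34 markers, from RefSeq (GRCm38.p6), as the 250 bases before each start site, with motifs counted on either strand over these and all 32851 promoters. A match of letters is a description and not a site of binding. The Aqp3 promoter (chr4:41098184-41098433, minus strand, GRCm38.p6, RefSeq) is printed because Aqp3 had the highest ratio of the 28. Capitals mark TATAAA, the TATA box, which began 29 bases before the start site, and GGCGCC, a GC-rich sequence bound by SMAD factors of the BMP pathway, which began 22 bases before it.
Aqp3 promoter: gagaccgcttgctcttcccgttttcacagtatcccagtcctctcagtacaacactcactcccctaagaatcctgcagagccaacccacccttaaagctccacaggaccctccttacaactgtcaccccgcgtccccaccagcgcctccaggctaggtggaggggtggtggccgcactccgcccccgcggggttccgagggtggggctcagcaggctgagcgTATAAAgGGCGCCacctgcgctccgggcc
The 23 markers have 28 promoters in RefSeq. GGCGCC was in 4 of these 28 (of Aqp3, Cited1, Lrp2 and Tfcp2l1) and in 9.59% of all promoters, and these 4 markers had ratios of either sign. CAAAGTCCA, a part of the Hnf4a site, was found in none of the 28 and in 0.384% of all promoters. GTCTAGAC, the SMAD palindrome, was in none of the 28 and in 0.167% of all promoters. AGATAA, a sequence bound by Gata factors, was in 6 of the 28 (of Aoc1, Aqp2, Hnf4a, Nphs1, Ptpro and Slc12a3) against 9.99% of all.

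Tfcp2l1, a transcription factor of collecting duct cells, listed on the array as Tcfcp2l1, was at 710 and 779 in the RNAs labelled Bmp4cKO and 1051 and 1702 in those labelled control. The log2 ratio was -0.81 ± 0.41 (SD, n = 2) and not called (limma adjusted p = 0.11). A second Tfcp2l1 probe had a ratio of -1.31, with 496 and 522 against 1073 and 1613. Scnn1a, Scnn1b and Scnn1g encode the alpha, beta and gamma subunits of the epithelial sodium channel, and the ratios of the first pair had opposite signs. Scnn1a was at 261 and 293 against 377 and 515, with a log2 ratio of -0.60 ± 0.19 (SD, n = 2, limma adjusted p = 0.12). Scnn1b was at 1124 and 1574 against 968 and 1008, with a log2 ratio of 0.45 ± 0.36 (SD, n = 2, limma adjusted p = 0.30). Neither was called, and Scnn1g was not well above background in any RNA. Avpr2, the vasopressin receptor, and Calb1, a calcium-binding protein of the distal nephron, had log2 ratios of -0.23 and -0.38 and were not called (limma adjusted p = 0.49 and 0.39). A second Calb1 probe lay between 3.08 and 5.29 and was not well above background in any RNA.

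The 3 renal stroma markers all had negative ratios on both arrays, with a median of -1.30, and 1 of them was called. The median was -0.62 on replicate 1 alone, without replicate 2. Alx1, a homeobox factor (probe at chr10:102471172-102471231), gave 921 and 743 in the RNAs labelled Bmp4cKO and 2072 and 2193 in those labelled control. The labels did not overlap, and the log2 ratio was -1.30 ± 0.35 (SD, n = 2), or 2.47-fold lower, with a limma adjusted p of 0.037. Ntn1, a secreted guidance cue, was at 760 and 1514 against 1174 and 2118, with a log2 ratio of -0.54 ± 0.09 (SD, n = 2, limma adjusted p = 0.12). Both Ntn1 signals were higher on replicate 2, and the ratio within each array was nearly the same.

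Ren1, which encodes renin, the protease that starts the angiotensin cascade, rested on 1 RNA. Its signals were 308 and 627 in the RNAs labelled Bmp4cKO, 452 in the RNA labelled control on replicate 1 and 7357 in that labelled control on replicate 2. Replicate 1 gave a log2 ratio of -0.62 and replicate 2 one of -3.38, so the mean of -2.0 ± 1.95 (SD, n = 2) was not called (limma adjusted p = 0.24). The RNA with the high renin signal was also the only one with Ddx3y signal, and the part of sex-linked differences in it was not tested. A probe for Ren2, a closely similar second renin gene carried by some mouse strains, had the same pattern, with 605, 690, 872 and 13393 in the order labelled Bmp4cKO and control on replicate 1, then on replicate 2. Whether the 2 probes tell these copies apart is uncertain. The Ren1 probe (chr1:135250782-135250841) and promoter (chr1:133350424-133350673, plus strand, GRCm38.p6, RefSeq) are shown for the marker that varied most between the arrays. Capitals in the promoter mark TATAAA, which began 29 bases before the start site and occurred in 7 of the 28 promoters of these markers and 12.4% of all.
Ren1 probe: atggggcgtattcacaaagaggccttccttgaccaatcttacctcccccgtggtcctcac
Ren1 promoter: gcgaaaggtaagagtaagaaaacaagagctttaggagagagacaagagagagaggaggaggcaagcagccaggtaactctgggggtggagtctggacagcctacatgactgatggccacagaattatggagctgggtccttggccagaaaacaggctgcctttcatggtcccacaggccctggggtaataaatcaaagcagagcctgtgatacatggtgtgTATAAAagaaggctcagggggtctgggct

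**Figure D2:**
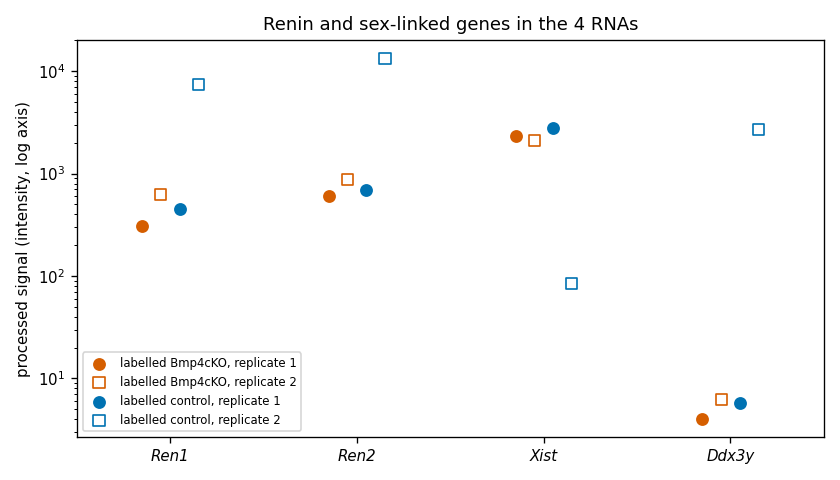
Processed signal on a log axis for Ren1, Ren2, Xist and Ddx3y in each RNA, with circles for replicate 1, open squares for replicate 2, orange for the RNA labelled Bmp4cKO and blue for that labelled control. The RNA labelled control on replicate 2 stands at 7357 for Ren1, 13393 for Ren2, 85.2 for Xist and 2720 for Ddx3y, apart from the other 3 RNAs for each gene.

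The 4 markers of several tubule segments were led by Aoc1, listed on the array as Abp1, which encodes diamine oxidase, an enzyme that breaks down histamine and polyamines. Its signals were 181 and 197 in the RNAs labelled control and 15.2 and 6.43 in those labelled Bmp4cKO, where it was not well above background on either array. It was the only one of the 28 that passed the filter through the control label alone, so a difference was built into its being tested. Because the dimmer side has only a bound, the RNA labelled control was at least 3.81-fold higher. This compares its mean with, on each array, the higher of the dimmest detected signal in the Bmp4cKO channel and the Aoc1 signal itself. The limma adjusted p was 0.020 (probe at chr6:48859115-48859174).

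Cadherins of the tubule had negative ratios that differed between the arrays. Cdh16, the cadherin of kidney epithelia, was at 14231 and 10504 in the RNAs labelled Bmp4cKO and 20318 and 26980 in those labelled control. The ratio was -0.39 on replicate 1 and -1.48 on replicate 2, the array whose RNAs differed in sex-linked expression. The mean of -0.93 ± 0.77 (SD, n = 2) was not called (limma adjusted p = 0.21). Cdh6, a cadherin of the early nephron, was at 1161 and 666 against 1276 and 1337, and its mean log2 ratio of -0.57 ± 0.52 (SD, n = 2) was not called (limma adjusted p = 0.30). Itm2c, a membrane protein of broad expression, ranged from 15834 to 19840, with a 95% interval from -0.50 to 0.24.

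**Figure D3:**
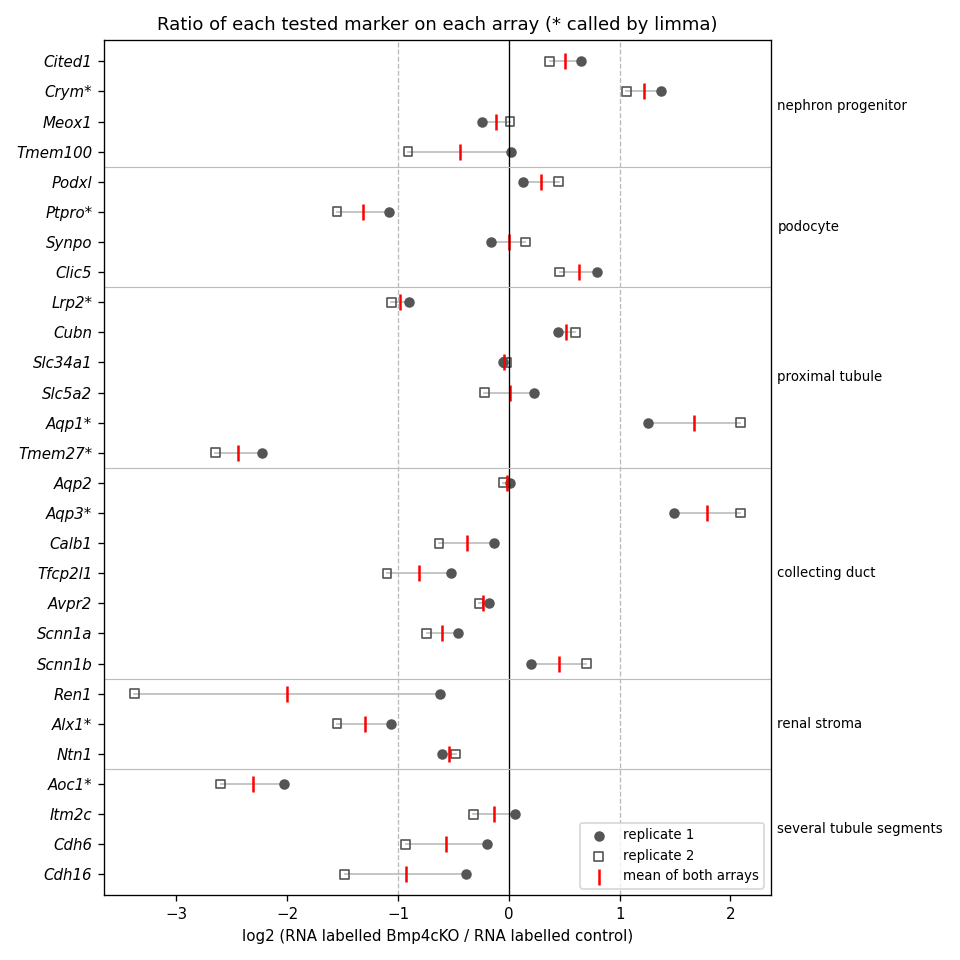
Log2 ratio of RNA labelled Bmp4cKO over RNA labelled control for each of the 28 tested markers on replicate 1 (circles) and replicate 2 (squares), with the mean of both as a red bar and dashed lines at 2-fold. The called genes have both arrays well to one side of 0, and Ren1 has the widest gap, from -0.62 to -3.38.

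**Figure D4:**
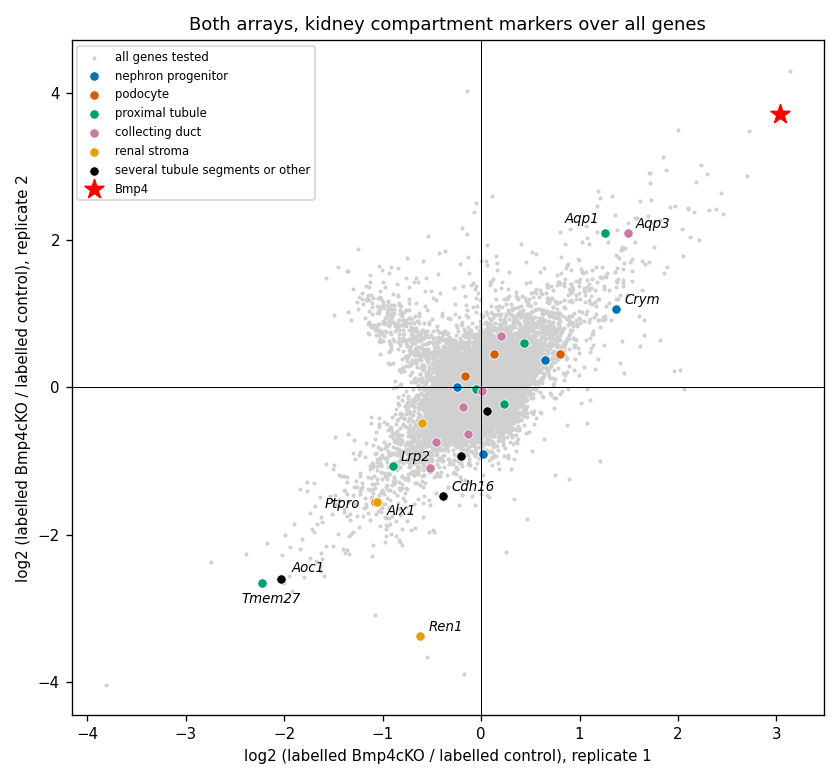
Log2 ratio on replicate 2 against that on replicate 1 for all 21978 genes (grey), the 28 tested markers coloured by compartment, and Bmp4 as a star. Tmem27 and Aoc1 lie at the lower left end of the diagonal, Aqp1, Aqp3 and Crym at the upper right on the side of Bmp4, and Ren1 lies off the diagonal.

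A further 73 kidney markers, with Tcf21 on 2 lists, were listed by compartment beside the 34. They too were chosen with earlier results of these data known, so they are no independent check. Of the 73, 63 were tested, 1 was called higher and 9 were called lower, with a median of -0.07. Over all genes tested, 0.887% were called higher and 1.02% lower. In the nephron progenitor list 2 of 9 were called lower. Gdnf, the ligand with which progenitors and stroma draw out the ureteric bud, gave 131 and 179 against 618 and 1005, a log2 ratio of -2.15 ± 0.17 (SD, n = 2, limma adjusted p = 0.016). Hoxd11, a homeobox factor of the kidney mesenchyme, had a log2 ratio of -0.85 ± 0.01 (SD, n = 2, limma adjusted p = 0.042). The 2 called podocyte genes were lower as well: Wt1, the factor required for podocytes and progenitors, at -1.34 ± 0.22 (SD, n = 2, limma adjusted p = 0.026), and Plce1, a phospholipase, at -0.97 ± 0.01 (SD, n = 2, limma adjusted p = 0.035).

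In the list of the ureteric bud and collecting duct, 3 of 14 were called lower and 1 higher. Ret, the receptor of Gdnf on the ureteric bud tip, was at 70.1 and 95.4 against 203 and 253, a log2 ratio of -1.20 ± 0.05 (SD, n = 2, limma adjusted p = 0.025). Wnt9b, the signal from the ureteric bud to the progenitors, had a log2 ratio of -1.97 ± 0.51 (SD, n = 2, limma adjusted p = 0.026), and Rhcg, an ammonia transporter of the collecting duct, one of -1.80 ± 0.65 (SD, n = 2, limma adjusted p = 0.040). Krt8, a keratin of simple epithelia that the urothelium shares, was higher by 0.86 ± 0.10 (SD, n = 2, limma adjusted p = 0.045). Ligand and receptor of the branching signal, Gdnf and Ret, were thus both lower on the side with more Bmp4.

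The further renal stroma list held 2 called genes of 11, both lower: Nts, neurotensin, at -3.92 ± 0.16 (SD, n = 2, limma adjusted p = 0.013), the lowest ratio of all genes tested, and Smoc2, a matricellular protein, at -1.43 ± 0.40 (SD, n = 2, limma adjusted p = 0.035). Foxd1, which defines renal stroma, did not follow, with 10657 and 15805 against 11508 and 16080 and a log2 ratio of -0.10 ± 0.03 (SD, n = 2, limma adjusted p = 0.83). Six2, which defines nephron progenitors, had opposite signs on the arrays, 1.21 and -0.99, which is the green channel higher both times. These 2 genes were picked after their values were seen. No gene was called of 14 further proximal tubule and 7 further loop and distal tubule markers tested. Among the proximal genes Fxyd2, a subunit of the sodium pump, had a log2 ratio of -0.76, and among the distal ones Wfdc2 had one of -0.35. Cldn10, a claudin, was at 34.8 and 40.3 against 19.9 and 24.8 and was not well above background in either RNA labelled control, so it passed the filter through the Bmp4cKO label alone and its ratio has no exact value.

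The tissue check lists describe what else the RNAs held. Of the 4 genes that were to define kidney tissue, Cited1 and Aqp2 were well above background in all 4 RNAs, and Nphs1 and Umod in none. Of 5 genes of the ureteric mesenchyme and smooth muscle, 3 were called higher, with a median of 1.13. Acta2, smooth muscle actin, had a log2 ratio of 1.13 ± 0.41 (SD, n = 2, limma adjusted p = 0.056) and Tagln, transgelin, one of 0.43 ± 0.39 (SD, n = 2, limma adjusted p = 0.34), so neither was called. The 3 called were Tbx18, Myh11 and Cnn1, of which the last pair was picked with its values seen. The summed signals of the 4 kidney genes were 2819 and 2917 in the RNAs labelled Bmp4cKO and 1771 and 2399 in those labelled control, and most of each sum is Cited1. No gene of the blood, macrophage, or gonad and mesonephros lists was called. The haemoglobin genes Hba-a1 and Hbb-y had opposite signs on the arrays, at -1.36 and 1.58 and at -0.83 and 0.62, which is the red channel higher both times. Csf1r and Adgre1, of macrophages, had log2 ratios of 0.04 and -0.07. The third gene of that list, the leukocyte marker Ptprc, likewise picked after its values were seen, had negative ratios on both arrays, with a mean of -0.80 ± 0.05 (SD, n = 2, limma adjusted p = 0.051). Pax8, which nephron progenitors and the mesonephros share, and Nr5a1, of the gonad, had log2 ratios of -0.78 and -0.43 (limma adjusted p = 0.11 and 0.18), and the testis hormone gene Amh was not well above background in any RNA. The part of kidney tissue, or of any other tissue left on the ureters, in the ratios of the 34 markers was not tested.

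**Figure D5:**
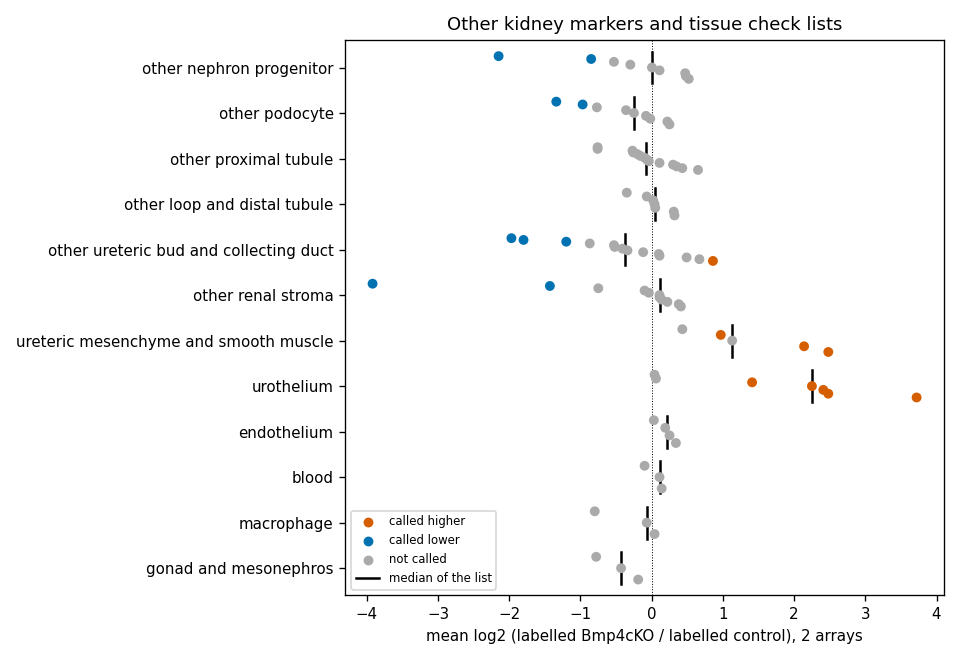
Mean log2 ratio over 2 arrays of each tested gene in the further kidney lists and the tissue check lists, coloured by call, with a black bar at the median of each list. The urothelium and smooth muscle lists lie to the right, with medians of 2.25 and 1.13, and the called genes of the kidney lists lie to the left except for Krt8.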

How the data were processed

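Total RNA of 4 dissected ureter samples was hybridised to 2 two-colour Agilent arrays. Spot values came from Agilent Feature Extraction 10.7.3.1, run by the authors, per the file headers and the submitters' processing notes. Deposited spot and local background values are linear intensities, and a deposited column gives log10 ratios, red divided by green, per the file headers. The authors' deposited value table holds a score per probe that proved to be a signed fold: its size was within 0.01 (log2) of the scanner's ratio for 99.6% and 99.5% of the probes well above background in all channels, its median was 1 on both arrays, and its sign was opposite to the dye labels for 100% of them. No source used here gives the order of the ratio in that table.

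Local background was corrected with normexp (offset 50), since plain subtraction leaves values below 0 with no log, and red over green was normalized by loess within each array in limma 3.58.1 under R 4.3.3. Of 39429 probes, 31001 were named through RefSeq (GRCm38.p6, for names) and 8428 by the array. Probes passed the filter if well above background in both RNAs of either label, and the brightest passing probe stood for its gene. Ratios were turned by the dye labels and tested against 0 with lmFit and eBayes (1 residual and 4.03 prior degrees of freedom). Benjamini-Hochberg adjustment ran over all 21978 genes. The same fit was also run on simulated ratios drawn from its own prior, without dye effects. That run cannot test the assumptions of the fit. Both arrays lay on one slide, so slide was no batch, and their number limits the precision. The members and lists were chosen with earlier results of these data known, and no list was tested as a set. Named were all markers with a value, Bmp4, Tbx18, the called further kidney markers and the 2 largest differences in each further list, and up to 2 genes of each tissue list by brightness, besides those said to be picked later. One item that this rule names is not reported here. Alternatives were other background corrections, centring, filters, probe summaries and priors, each array alone, the authors' table, and, chosen after seeing the data, a fit without sex chromosomes.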

Additional observations from a re-analysis of the deposited data

Results flagged for a closer look

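The ratio of 6 of the 28 tested markers had opposite signs on the 2 arrays, and the difference between the arrays was not tested in any of them. The log2 ratio on replicate 2 minus that on replicate 1 was 0.25 for Meox1, -0.93 for Tmem100, 0.31 for Synpo, -0.45 for Slc5a2, -0.05 for Aqp2 and -0.38 for Itm2c. The arrays differed in dye orientation and in labelled sex at once, and only on replicate 2 did the RNAs differ strongly in Xist and Ddx3y signal. These differences cannot be told apart. Hnf4a, which was too dim to be tested, was well above background in 1 RNA alone, at 26.1 on replicate 1 under the Bmp4cKO label. The control label on that array gave 22.7, and replicate 2 gave 25.3 under the Bmp4cKO label and 19.1 under control.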

How the results depend on the processing

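All 8 called markers were also called with no background correction, an offset of 10, no filter, the mean of the probes, and a robust prior. With median centring in place of loess 0 markers were called higher and 0 lower, and Bmp4, at 3.38, had an adjusted p of 0.30, while the counts of at least 2-fold on both arrays were 3 and 4 as before. A prior with a trend called 5 higher and 7 lower (Cited1, Clic5, Tfcp2l1 and Ntn1 added), against 612 and 671 over all genes, and an offset of 10 called 328 and 370 genes. Lrp2 was lost with the scanner's processed signals, Aoc1 with a filter on all 4 channels, and Tmem27 was left out without sex chromosomes. Signs turned for uncalled ratios near 0: Synpo was 0.01 with median centring and with processed signals, Slc34a1 0.0037 without background correction and 0.02 with processed signals, and Slc5a2 -0.02 with median centring. The collecting duct median was -0.35 with the mean of the probes, -0.12 without a filter and -0.38 with processed signals. On 1 array alone, which allows no test, 4 to 8 markers were at least 2-fold lower, the progenitor median was 0.19 to 0.33, and the renal stroma median was -1.55 to -0.62. The cause of these changes was not tested. Signal over background was 7.14 and 7.58 in red and 14.9 and 15.6 in green. Each ratio pairs the 2 RNAs of its array.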
